A study of Macaca fascicularis with 2 samples.

Results

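*IL17B* is the gene of a secreted cytokine of the interleukin-17 family, and it was examined here together with 6 genes that were grouped with it, namely *IL17RB*, *GFRA3*, *EDNRB*, *NPVF*, *MEPE* and *SMPD3*. These 7 genes, of 21371 listed, were chosen by measured values of the same cells, and a cell with *IL17B* at 100 or more reads per 1000000 reads (rpm) was called IL17B-high, so the contrast between IL17B-high and other cells describes the choice and is not a test of it. IL17B-high cells made up 151 of the 5653 cells kept in the main library.

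The cells came from articular cartilage (AC) and nucleus pulposus (NP), the gelatinous core of the intervertebral disc, of 2 wild-type male cynomolgus monkeys (*Macaca fascicularis*), both 3 years old. The labels list 3 tissue samples in 1 pooled library, of which 2 are AC and 1 is NP. Cells were read by TAS-seq, a single-cell method that amplifies cDNA made on barcoded beads. Each cell carried 1 of 4 surface tags, A951 to A954. No source used here pairs a tag with a tissue or a monkey, so the tags are compared with each other but AC and NP are not.

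The IL-17 family acts through paired receptor chains, and IL-17 receptor B, the product of *IL17RB*, binds both IL-17B and IL-25. *GFRA3* codes for a GDNF family receptor that binds artemin and signals with RET, and *EDNRB* for the endothelin B receptor. *NPVF* codes for the precursor of RF-amide neuropeptides best known from the hypothalamus. *MEPE* codes for a phosphoglycoprotein of mineralizing matrix, known from osteocytes and dentine, and *SMPD3* for neutral sphingomyelinase 2, a membrane enzyme that releases ceramide and is needed for normal mineralization of cartilage and bone.

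The 5653 cells held 1341305522 reads, with medians of 198432 reads and 3827 genes for a cell and a range from 24907 to 1290096 reads. The median depth by tag was 182459 reads in the 995 cells of A951, 178260 in the 1125 of A952, 197886 in the 1377 of A953 and 222358 in the 2156 of A954. The files count reads and not molecules, so copies made by PCR are included, and every interval given here is a 95% interval for counting error only (exact Clopper-Pearson for shares of cells). With 1 library, cells are not replicates, and no test between groups of cells was made. A second deposited matrix of 1358 cells, which no sample label names, was described apart from the main library and is given at the end. The 2 matrices had 15 barcode numbers in common.

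A few cells held nearly all *IL17B* reads of this library and most cells held none. The IL17B-high cells were 2.67% of all cells (2.27 to 3.13) and held 98.9% of the *IL17B* reads, although they held 4.79% of all reads. No *IL17B* read was found in 4264 cells, exactly 1 read in 869 cells and 10 to under 100 rpm in 172 cells. Above the threshold, 44 cells lay between 100 and 1000 rpm and 107 at 1000 rpm or more. The nearest cells on either side of the threshold had 84.0 rpm, from 7 reads, and 103.5 rpm, from 60 reads. Among the other cells 22.5% had at least 1 *IL17B* read, with a median of 1 read, which is the background for detection by a single read.

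IL17B-high cells made up 37 of 995 cells with tag A951 (3.72%, 2.63 to 5.09), 42 of 1125 with A952 (3.73%, 2.70 to 5.01), 51 of 1377 with A953 (3.70%, 2.77 to 4.84) and 21 of 2156 with A954 (0.974%, 0.604 to 1.49). Thus A954, the tag with the most cells and the deepest cells, had the lowest share, and its interval did not overlap those of the other 3 tags. Within the IL17B-high cells the median level was 1398 rpm (lowest 114.7, highest 9418) in A951, 1860 rpm (103.5 to 8131) in A952, 1866 rpm (156.4 to 13372) in A953 and 1219 rpm (189.7 to 4888) in A954. The ranges of the 4 tags overlapped, and the highest level of A954 lay below those of the other 3. IL17B-high cells were read more deeply than other cells, with a median of 382234 against 195348 reads and 5316 against 3803 genes, and the part of this difference in the results below was examined by thinning all cells to 50000 reads.

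**Figure D1:**
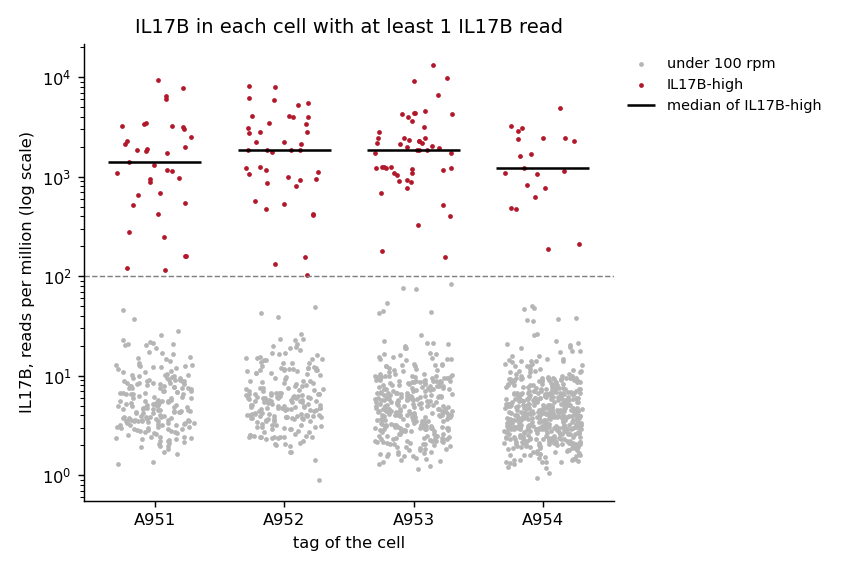
Each point is a cell with at least 1 *IL17B* read, by tag, with *IL17B* in rpm on a log axis. Red points are the 151 IL17B-high cells, grey points cells under 100 rpm, the dashed line the threshold and black bars the median of the IL17B-high cells of each tag, which lay between 1219 and 1866 rpm.

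Genes were described across the library by pooled levels, in which the reads of a gene in all cells of a group are added up and divided by all reads of that group. A gene entered the count if at least 10% of the IL17B-high or of the other cells had a read, and was called higher or lower at a 2-fold difference of pooled rpm. Of 10548 such genes, 570 (5.40%) were higher and 1971 (18.7%) were lower in IL17B-high cells, and the median log2 ratio was −0.33. The number of higher genes depended on single cells and on depth, as it was 365 without the IL17B-high cell with the most reads of each gene and 366 after thinning. All 5 of the other members that passed the detection minimum were called higher, and *IL17RB*, at 9.93% of IL17B-high cells, did not pass it. Since this contrast chose the members, nothing can be read from that count.

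*IL17RB*, the receptor gene of the ligand that defined the cells, differed least between the groups. It was detected in 15 of 151 IL17B-high cells (9.93%, 5.67 to 15.9), 9 of them with a single read, and in 254 of 5502 other cells (4.62%, 4.08 to 5.20). By tag the IL17B-high share was 5.41% in A951, 7.14% in A952, 13.7% in A953 and 14.3% in A954, and the intervals of A951, A952 and A954 included the share of the other cells with that tag. Of the 44 cells with *IL17RB* at 100 rpm or more, 2 were IL17B-high, both with tag A954. The pooled level of 5.09 rpm against 2.95 rpm gave a log2 ratio of 0.79, but 46.8% of the reads came from 1 cell with tag A954, without which the ratio was −0.11, and without A954 it was −1.42. The level in IL17B-high cells was 0.127 rpm from 2 reads in A951, 0.342 rpm from 5 reads in A952, 2.57 rpm in A953 and 23.8 rpm in A954, against 3.54, 4.92, 2.06 and 2.46 rpm in other cells, so the direction was not shared between tags. After thinning, *IL17RB* was found in 3.33% of IL17B-high cells (1.09 to 7.61) and 2.06% of other cells (1.69 to 2.48), and the intervals overlapped.

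*GFRA3* was frequent in IL17B-high cells and rare in the others. It was detected in 73 of 151 IL17B-high cells (48.3%, 40.1 to 56.6) and in 255 of 5502 other cells (4.63%, 4.09 to 5.22). The share in IL17B-high cells was 45.9% in A951, 42.9% in A952, 56.9% in A953 and 42.9% in A954, while in other cells it lay between 4.22% and 5.26%. In none of the tags did the 2 intervals overlap. The pooled level was 79.2 rpm in A951, 134.1 rpm in A952, 167.3 rpm in A953 and 130.7 rpm in A954, against 2.10 to 6.10 rpm in other cells. Over all cells this was a log2 ratio of 5.44, and the IL17B-high cells held 68.6% of all *GFRA3* reads. Of the 94 cells with *GFRA3* at 100 rpm or more, 48 were IL17B-high, which is 51.1% of the *GFRA3* cells and 31.8% of the IL17B-high cells. The other 46 cells with high *GFRA3* therefore had *IL17B* below the threshold.

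*EDNRB* was detected in 64 IL17B-high cells (42.4%, 34.4 to 50.7) and in 256 other cells (4.65%, 4.11 to 5.24). Its share in IL17B-high cells was 29.7% in A951 (15.9 to 47.0), 42.9% in A952, 43.1% in A953 and 61.9% in A954 (38.4 to 81.9), with overlapping intervals, against 4.30% to 4.92% in other cells. The pooled level was 41.2, 62.7, 19.3 and 59.1 rpm in the same order of tags, and A953 with the lowest level was not the tag with the lowest share. The log2 ratio over all cells was 3.82. In all, 21 of the 59 cells with *EDNRB* at 100 rpm or more were IL17B-high (35.6%), a smaller share than the 51.1% for *GFRA3*.

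*NPVF* was the member whose reads lay almost entirely in the same cells as those of *IL17B*. IL17B-high cells held 97.2% of its 2912 reads, and all 20 cells with *NPVF* at 100 rpm or more were IL17B-high. It was detected in 57 IL17B-high cells (37.7%, 30 to 46.0) and in 70 other cells (1.27%, 0.993 to 1.60), of which 1 had 5 reads or more. By tag it was detected in 6 of 37 cells in A951 (16.2%, 6.19 to 32.0), 14 of 42 in A952 (33.3%, 19.6 to 49.5), 29 of 51 in A953 (56.9%, 42.2 to 70.7) and 8 of 21 in A954 (38.1%, 18.1 to 61.6). The interval of A951 lay below that of A953. The pooled level was 36.9, 32.4, 63.7 and 28.9 rpm in the 4 tags against at most 0.0919 rpm in other cells, a log2 ratio of 9.44 over all cells. The highest cell had 418.9 rpm of *NPVF* and 3187 rpm of *IL17B*.

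*MEPE* and *SMPD3*, both tied to mineralizing tissue, differed in how often they were found. *MEPE* was detected in 27 IL17B-high cells (17.9%, 12.1 to 24.9) and 138 other cells (2.51%, 2.11 to 2.96), with 16.2%, 19.0%, 15.7% and 23.8% of IL17B-high cells in A951, A952, A953 and A954. Its log2 ratio was 4.30, and 3.97 without the IL17B-high cell with the most *MEPE* reads. The 3 cells with the highest *MEPE*, from 538.6 to 777.0 rpm, had no *IL17B* read, and 11 of 28 cells with *MEPE* at 100 rpm or more were IL17B-high.

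*SMPD3* was detected in 73 IL17B-high cells (48.3%, 40.1 to 56.6) and 253 other cells (4.60%, 4.06 to 5.19). By tag the share was 48.6% in A951, 38.1% in A952, 52.9% in A953 and 57.1% in A954, against 3.88% to 5.28% in other cells. Many of these cells held few reads, and from 5 reads the share in IL17B-high cells was 22.5%. The pooled level of 21.5 rpm against 1.25 rpm was a log2 ratio of 4.11, and in A952 no IL17B-high cell reached 100 rpm. Of the 22 cells with *SMPD3* at 100 rpm or more, 8 were IL17B-high. The cell with the highest *SMPD3*, at 1064 rpm, had no *IL17B* read, and the next, at 785.5 rpm, was the cell with the most *IL17B* in the library, at 13372 rpm.

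**Figure D2:**
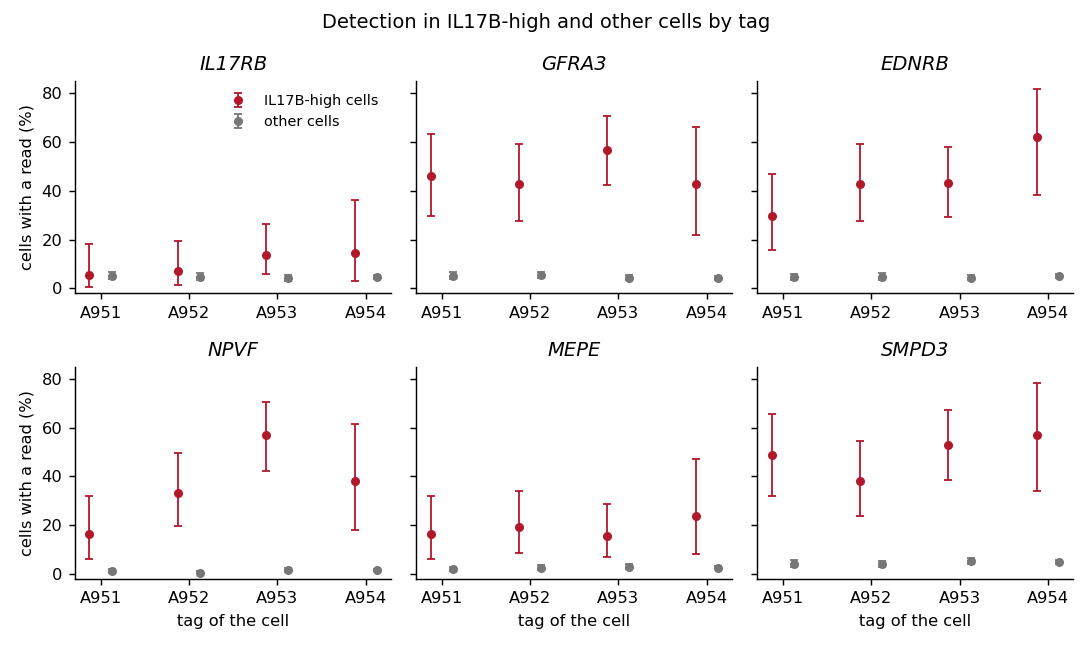
Share of cells with at least 1 read of each gene, in percent, by tag, for IL17B-high (red) and other (grey) cells, with 95% exact intervals. For *GFRA3*, *EDNRB*, *NPVF*, *MEPE* and *SMPD3* the red points lie above the grey ones in all 4 tags, whereas those of *IL17RB* lie between 5.41% and 14.3% with intervals that reach the grey points in 3 tags.

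The members were found together as well as singly. At least 1 of the other 6 members was detected in 129 of 151 IL17B-high cells (85.4%, 78.8 to 90.6) and in 19.8% of other cells (18.7 to 20.8). At least 2 were detected in 62.3% (54.0 to 70.0) against 2.31%, and at least 3 in 33.8% (26.3 to 41.9) against 0.200%. A single IL17B-high cell, with tag A954, had all 6 and 7 IL17B-high cells had 5, whereas no cell below the threshold had more than 4. Among the 4 tags the share with at least 1 ran from 81.0% in A952 to 90.5% in A954.

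Within the 151 IL17B-high cells the members did not split into exclusive subsets. *GFRA3* and *SMPD3*, the pair found together most often, were both detected in 42 cells, and *SMPD3* was found in 57.5% of cells with *GFRA3* and in 39.7% of those without it. *NPVF* was found in 49.3% of cells with *GFRA3* and 26.9% without it, and *EDNRB* in 50.7% and 34.6%. *MEPE* and *NPVF* shared 11 cells, and *MEPE* was found in 19.3% of cells with *NPVF* and 17% of those without it. The pairs were neither thinned nor split by cluster. Of the 151 cells, 21 lay outside the cluster described below. These had fewer reads, with *GFRA3* in 2 of them and *NPVF* in none.

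Detection of the other members did not climb evenly with *IL17B*. Any other member was found in 17.9% of cells with no *IL17B* read, 28.3% of cells under 10 rpm, 12.8% from 10 to under 100 rpm, 65.9% from 100 to under 1000 rpm and 93.5% at 1000 rpm or more. The cells with a read but under 10 rpm were read more deeply (median 297644 reads) than those from 10 to under 100 rpm (136110 reads), and the cells from 100 to under 1000 rpm had 309148 reads, so depth and detection both stepped up at the threshold. The bins were not thinned. *NPVF* was found in 0 of the 172 cells from 10 to under 100 rpm, which by the limit of 3 cells allows a share of up to 1.74%, in 13.6% of the 44 cells above them and in 47.7% of the 107 highest cells. *IL17RB* was the exception, with 15.9% from 100 to under 1000 rpm and 7.48% at 1000 rpm or more.

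**Figure D3:**
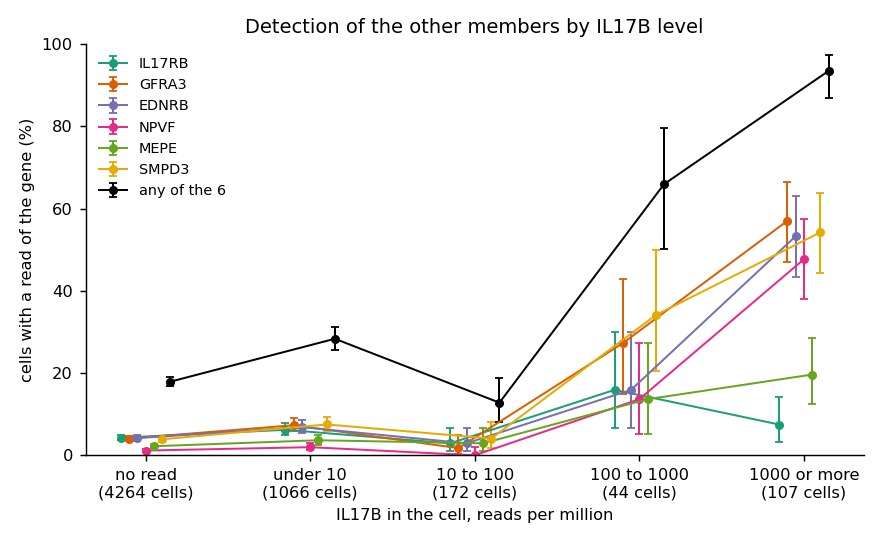
Share of cells with a read of each member, in percent with 95% exact intervals, in 5 bins of *IL17B* rpm, and of cells with any of the 6 (black). The black line stands at 12.8% from 10 to under 100 rpm and at 65.9% and 93.5% in the last 2 bins.

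**Figure D4:**
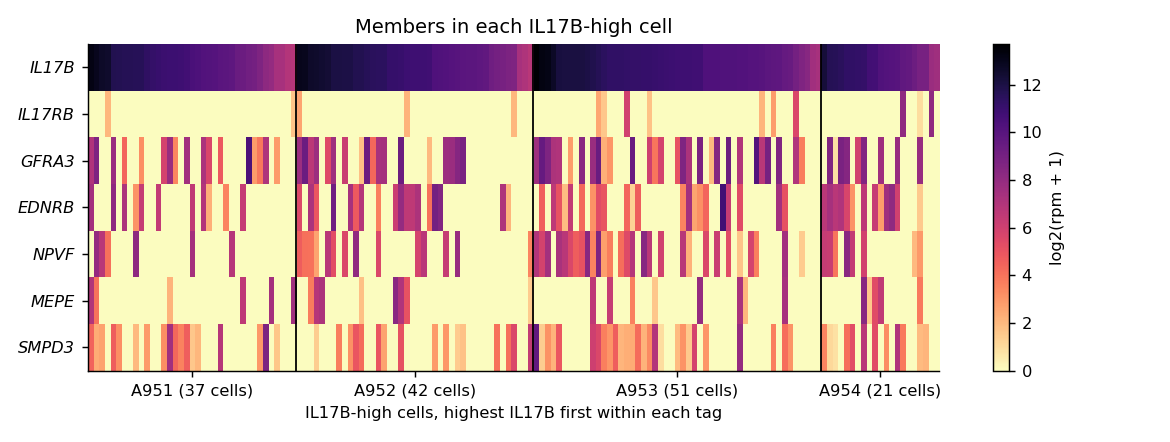
Each column is 1 of the 151 IL17B-high cells, ordered by *IL17B* within each tag, and each row a member, coloured by log2(rpm + 1). *GFRA3*, *EDNRB*, *NPVF* and *SMPD3* are scattered over all 4 tags with a few columns empty below *IL17B*, and *MEPE* and *IL17RB* are sparse.

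At an equal depth of 50000 reads per cell, with IL17B-high cells called again from the thinned reads, 150 IL17B-high cells and 5296 other cells were left (149 and 5297 by the call before thinning). The IL17B-high cells still had more genes, with medians of 2975.5 against 2556 genes, and the shares were lower but the order between the groups was the same for the 5 members other than *IL17RB*. *GFRA3* was found in 42.7% against 2.06% of cells, *EDNRB* in 34.0% against 1.96%, *NPVF* in 29.3% against 0.208%, *MEPE* in 13.3% against 1.08% and *SMPD3* in 20.7% against 1.68%. The share of *IL17RB* is given above.

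The cells were also clustered with the 7 members left out of the variable genes, so that the grouping did not use them directly. Of the 6 clusters, 1 of 164 cells held 130 of the 151 IL17B-high cells (86.1%, 79.5 to 91.2), and these were 89.2%, 83.3%, 86.3% and 85.7% of the IL17B-high cells of A951, A952, A953 and A954. Genes found in at least 10% of the cells inside or outside this cluster were ranked by the ratio of pooled rpm. The highest were *IL17B*, *NPVF*, *IBSP*, *EVI2B*, *BCL2A1*, *ALPL*, *LRRC15*, *CA2*, *BGLAP* and *TRH*. Such a ratio can rest on single cells, as given below for *TRH* and *EVI2B* in IL17B-high cells. Among the marker lists its highest score was that of osteoblasts and osteocytes, with *IBSP* and *BGLAP*. It also had the highest score of the 6 clusters for the chondrocyte markers. In the IL17B-high cells *SP7*, the transcription factor that defines osteoblasts, was at 0.0779 rpm and *SOST*, a product of osteocytes, was at 0.280 rpm against 21.3 rpm in other cells, so the cluster was given no cell type name.

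The IL17B-high cells inside and outside this cluster differed. The 21 cells outside it had a median of 475.7 rpm of *IL17B* against 1952 rpm inside, and fewer reads (221696 against 404234). At least 1 other member was found in 8 of them (38.1%, 18.1 to 61.6) against 121 of the 130 inside (93.1%). *NPVF* and *MEPE* were found in none of the 21, which allows a share of up to 14.3%, *GFRA3* in 2, *EDNRB* in 3 and *SMPD3* in 5. Of these 21 cells, 15 lay in the largest cluster, which has no name and holds 2802 cells.

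The 34 cells of the cluster that were below the *IL17B* threshold carried the members other than *IL17RB* at shares between those of the IL17B-high cells and the rest of the library, and *IL17RB* in none, which allows a share of up to 8.82%. *GFRA3* and *SMPD3* were each found in 6 of them (17.6%, 6.76 to 34.5) and any other member in 50%, against 19.6% of the 5468 cells that were neither IL17B-high nor in the cluster. *NPVF* was found in 1 of the 34 cells (2.94%, 0.0744 to 15.3) and *MEPE* in 2 (5.88%, 0.720 to 19.7). These intervals included the shares in the 5468 cells, 1.26% and 2.49%.

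The receptor genes were also found outside these cells. The cluster of 360 cells that carried the notochordal cell (NC) markers *KRT19*, *TBXT* and *C3orf49* held no IL17B-high cell, which allows a share of up to 0.833%, yet it had *IL17RB* at 16.5 rpm in 11.1% of cells and *GFRA3* at 12.2 rpm in 7.78%. Of the 44 cells with *IL17RB* at 100 rpm or more, 15 lay there, including the 3 highest of the library, from 915.9 to 1262 rpm, none of which had an *IL17B* read. This NC-like cluster held 280 cells of tag A952, 73 of A951, 5 of A953 and 2 of A954. *EDNRB*, in contrast, was at 0.220 rpm there. Of its 59 highest cells, 19 lay in the cluster of 1161 cells with the AC-dominant markers. Another 18 lay among the 164 cells of the cluster of most IL17B-high cells, and 15 in the largest cluster of 2802 cells. The cluster with the AC-dominant markers was read about as deeply as the IL17B-high cells (median 343796 reads) and held 2 of them. Of the 28 cells with *MEPE* at 100 rpm or more, 14 lay in the largest cluster and 12 in the cluster of the IL17B-high cells.

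The lists of pathway and marker genes place the members among their partners. They were drawn up with earlier results of these data known and are given by counts beside the 5.40% higher and 18.7% lower of all genes. Some counts include *IL17B* or another member. Since the contrast chose the members, their part of a count says nothing about the list. Of the IL-17 ligands and receptors only *IL17B*, *IL17RC* and *IL17RD* passed the detection minimum. *IL17RC* was at 10.6 rpm against 2.62 rpm in other cells, but was higher in 2 of 4 tags only, and without A953 the levels were 5.01 rpm against 2.68 rpm, under 2-fold. *IL17RD*, a receptor-like inhibitor of FGF signalling, was lower at 1.01 rpm against 2.64 rpm, but at 1.01 rpm against 1.21 rpm without A952, the tag of most NC-like cells, so the call rested on that tag. *IL17A*, *IL17C*, *IL17F* and *IL25* had reads in at most 1.32% of cells of either group. *IL17D* and *IL17RA*, the common receptor chain, were not among the genes counted.

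None of the 14 tested adaptors and response genes of IL-17 signalling was higher in IL17B-high cells and 7 were lower, with a median log2 ratio of −1.10. The 7 lower genes included *CXCL8* (3.31 rpm against 165.5 rpm), *CXCL1*, *IL6* and *CCL2*, chemokine and cytokine genes, and *NFKBIA*, *NFKBIZ* and *NFKB1* of the NF-κB pathway. *CXCL8* was lower in all 4 tags, with 2.54, 3.15, 2.97 and 5.29 rpm in IL17B-high cells of A951, A952, A953 and A954 against 126.7, 371.9, 83.3 and 144.4 rpm in other cells. *TRAF3IP2*, the adaptor that joins IL-17 receptors to NF-κB, was level at 216.0 rpm against 203.9 rpm. In *IL6*, 80.5% of the reads of IL17B-high cells came from 1 cell.

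In the GDNF family the ligand gene *GDNF* was higher, as *GFRA3* was. *GDNF* was detected in 42 IL17B-high cells and was at 53.2, 114.2, 62.1 and 14.8 rpm in the 4 tags against 1.42 to 3.84 rpm in other cells, a log2 ratio of 4.51. Both genes were found in 21 cells, or 28.8% (18.8 to 40.6) of the IL17B-high cells with *GFRA3*, and *GDNF* was found in 26.9% (17.5 to 38.2) of those without *GFRA3*. *ARTN*, the ligand of *GFRA3*, had reads in at most 1.99% of cells and *RET*, the shared signalling receptor, was at 1.04 rpm against 1.02 rpm, with 65.7% of its reads in IL17B-high cells from 1 cell. *NRTN* and *NCAM1* were lower with all tags pooled. Without A952 *NCAM1* was at 15.3 rpm against 27.6 rpm and *NRTN* at 0.524 rpm against 0.991 rpm, both under 2-fold. Within A953 *NCAM1* was not lower, at 28.4 rpm in IL17B-high cells against 27.6 rpm in other cells. The endothelin ligand genes were near 0. *EDN1* and *EDN2* had reads in at most 1.07% of cells, *EDN3* was at 0.452 rpm, and *ECE1*, which cleaves the endothelin precursors, was lower at 7.35 rpm against 14.7 rpm, a call that was lost without A951, A952 or A954. Among RF-amide genes, *NPFFR1* and *NPFFR2*, receptors for *NPVF* peptides, did not pass the detection minimum, and *PAM*, whose product amidates such peptides, was at 474.6 rpm against 891.3 rpm.

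Of 10 tested genes of the SIBLING family (small integrin-binding matrix glycoproteins, to which *MEPE* belongs) and of phosphate handling, 5 were higher and 1 was lower. The 5 include *MEPE*, which as a member was chosen by this contrast. Beside *MEPE*, *IBSP* (bone sialoprotein) was at 77.4, 367.7, 96.4 and 2240 rpm in the 4 tags against 0.766 to 12.5 rpm in other cells, and 1 cell held 47.9% of its reads, without which the log2 ratio of 7.08 was 6.17. *SPP1* (osteopontin) was at 3405 rpm against 800.7 rpm, *ALPL* (tissue-nonspecific alkaline phosphatase) at 73.3 rpm against 0.616 rpm and *PHOSPHO1*, a phosphatase that starts mineral deposition in matrix vesicles, at 134.4 rpm against 7.97 rpm, each higher in all 4 tags. *SOST* was the lower gene, and *FGF23* had reads in at most 1.69% of cells.

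Of 5 tested genes known from hypertrophic cartilage, 4 were higher and none lower. *RUNX2*, a transcription factor of hypertrophic chondrocytes and osteoblasts, was at 11.3, 24.8, 35.4 and 39.7 rpm in the 4 tags against 1.84 to 4.07 rpm in other cells. *PTH1R*, the receptor for parathyroid hormone and PTHrP, was at 874.2 rpm against 71.9 rpm and *MEF2C* at 168.1 rpm against 46.2 rpm, and *ALPL* also belongs to this list. *COL10A1*, the collagen that defines hypertrophic chondrocytes, was not among them: it had 10 reads in the 151 cells, or 0.156 rpm, and 2.19 rpm in other cells. Of 13 tested genes of cartilage matrix and its regulators, 3 were higher and none was lower. They summed to 78177 rpm in IL17B-high cells against 44173 rpm in other cells. *CNMD* (chondromodulin, an inhibitor of vessel growth) was at 1486 rpm against 111.5 rpm, *COL9A1* at 12886 rpm against 4557 rpm and *SNORC* at 6558 rpm against 2559 rpm, while *COL2A1* and *ACAN*, with log2 ratios of 0.71 and 0.05, and *SOX9*, at 197.0 rpm against 393.6 rpm, did not pass the 2-fold limit. Of 13 sphingomyelin and ceramide enzymes, the member *SMPD3* and *SPTLC2* were higher and 4 were lower. Of the lower genes, *SMPD2* lost its call without A952 and *CERS5* without A953 or A954.

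Markers of other cells were counted in the same way. All 6 tested NC-like markers were lower, summing to 24.0 rpm against 303.7 rpm in other cells, with *NCAM1* the most abundant in IL17B-high cells. By tag the sums were 9.86 rpm against 313.3 rpm in A951, 35.8 rpm against 1352 rpm in A952, 33.0 rpm against 55.6 rpm in A953 and 9.58 rpm against 28.0 rpm in A954, with the highest sum of other cells in A952, without which the call of *NCAM1* was lost. Of 7 common3-like markers, *JUN*, *ID3* and *ID1* were lower, although in A954 *JUN* was at 657.7 rpm against 553.9 rpm in other cells. Of 7 chondrocyte markers, 1 (*COL9A1*) was higher. All 5 tested fibroblast and annulus markers were lower, and 4 of 5 AC-dominant markers were lower. The 6 counted fibroblast and annulus markers, tested or not, summed to 441.8 rpm against 3428 rpm, mostly *COL3A1*. Of 4 tested osteoblast and osteocyte markers, *IBSP* and *BGLAP* were higher and *SOST* was lower. The markers of this list summed to 851.5 rpm against 40.6 rpm, of which *IBSP* gave 519.4 rpm. By tag this sum was 393.8 rpm in A951, 704.9 in A952, 487.0 in A953 and 2465 in A954. None of the 3 tested cycling markers or the 1 endothelial marker differed by 2-fold, and 2 of 5 pericyte or smooth muscle and 1 of 3 immune markers were lower, with the call of *MYH11*, a smooth muscle marker, lost without A954. Endothelial markers summed to 2.91 rpm against 3.08 rpm, immune markers to 15.4 rpm against 23.9 rpm, cycling markers to 40.8 rpm against 42.9 rpm and pericyte or smooth muscle markers to 64.2 rpm against 81.4 rpm. No counted marker was at 0 over all IL17B-high cells, but in single tags *SOX10* (A951), *CDH5* and *UBE2C* (A952) and *CD14* and *TNMD* (A954) were. The part of osteoblast-lineage cells, or of cells captured in pairs, in these values was not tested, and pairs of cells with 1 tag were not removed.

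Among all tested genes besides the members, the 10 with the highest log2 ratio were *BCL2A1* (7.13), *IBSP* (7.08), *ALPL* (6.89), *EVI2B* (6.84), *BGLAP* (5.97), *TRH* (5.97), *CA2* (5.82), *RFTN1* (5.67), *F13A1* (5.37) and *MOBP* (5.33). Several rested on single cells: 1 cell held 83.8% of the *TRH* reads and 64.5% of the *EVI2B* reads in IL17B-high cells. *BGLAP* (osteocalcin) was more even, with a read in 52.3% of IL17B-high cells, 8.79% of its reads in the top cell and 293.5, 319.2, 346.3 and 186.8 rpm in the 4 tags against 3.48 to 7.23 rpm in other cells. *CA2* (carbonic anhydrase 2), *RFTN1* (a lipid raft protein) and *F13A1* (a transglutaminase subunit) were each found in more than 40% of IL17B-high cells. The 10 lowest genes were *KRT19*, *COX4I2*, *SLPI*, *SOST*, *TBXT*, *TUBA4A*, *SFRP2*, *LYPD1*, *CXCL1* and *C3orf49*, with log2 ratios from −6.79 to −5.78 and none higher in any tag. *KRT19*, *TBXT*, *LYPD1* and *C3orf49* are among the genes that led the NC-like cluster.

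Likeness to *IL17B* was also measured as Pearson's r of log2(rpm + 1) over the 5653 cells, among genes found in at least 1% of them, as a description, since cells share depth and most values are 0. The 10 most like genes were *NPVF* (0.45), *FGFBP2* (0.41), *BGLAP* (0.37), *GFRA3* (0.36), *CA2* (0.34), *CCDC80* (0.31), *CNMD* (0.31), *PHOSPHO1* (0.31), *RFTN1* (0.31) and *EDNRB* (0.30). Of the members, 3 were thus among them, and *SMPD3* was at 0.30, *MEPE* at 0.16 and *IL17RB* at 0.03. *FGFBP2*, which codes for a secreted protein of the FGF-binding family, was found in 98.0% of IL17B-high cells and 30.8% of other cells, more than any of the other 6 members.

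The second deposited matrix gave a different picture for the members. The study combined its data with earlier data from the same method, which came from other samples and in part from another monkey. No label says whether this matrix holds those earlier cells. Its columns and the tagged cells of the main library together number exactly the total the study gives for its new and earlier data. By that count this matrix holds the earlier cells, so its samples, and in part its animals, differ from those of the main library. After the same limits it held 1347 cells with a median of 121539 reads, and 218 of them (16.2%, 14.3 to 18.3) were IL17B-high. The shares by tag were 9.61% of 562 cells in A951, 19.0% of 342 in A952, 25.2% of 226 in A953 and 19.4% of 217 in A954, and nothing says that a tag marks the same tissue in both matrices. The pooled *IL17B* level of these cells was 1067 rpm, against 2574 rpm in the main library, but these levels come from separate libraries. Of 10758 tested genes 5.89% were higher and 11.0% lower.

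At least 1 of the other 6 members was found in 25.7% (20.0 to 32.0) of these IL17B-high cells and in 18.4% of other cells (16.2 to 20.8). With *IL17RB* left out the shares were 14.7% (10.3 to 20.1) and 6.47% (5.10 to 8.06), and these intervals did not overlap. The IL17B-high cells were however read more deeply, with a median of 202308 against 106516 reads and 6084 against 3970 genes. *GFRA3* was found in 3 of 218 IL17B-high cells (1.38%, 0.285 to 3.97) and 2.39% of other cells, *EDNRB* in 7 (3.21%) and 2.13%, *NPVF* in 4 (1.83%) and 0.354%, *MEPE* in 3 (1.38%) and 0.177%, and *IL17RB* in 28 (12.8%) and 12.4%. In all of these the intervals of the 2 groups overlapped. Only *SMPD3*, in 20 cells (9.17%, 5.69 to 13.8) and 2.04% (1.30 to 3.04), had intervals that did not. The share by tag was 5.56%, 10.8%, 12.3% and 7.14% against 1.97%, 2.89%, 1.18% and 1.71%. Of the 6 members only *IL17RB* passed the detection minimum, and it was called lower, at 4.81 rpm against 9.88 rpm, a call that was lost without A953 or A954. With no minimum, 2 of the 6 were 2-fold higher and 3 lower, with a median log2 ratio of −0.77. Only 1 was higher without the IL17B-high cell with most reads of each gene. *EDNRB* was at 0.0319 rpm in cells with *IL17B* from 100 to under 1000 rpm and 0.331 rpm at 1000 rpm or more. Each lower bin of *IL17B* had at least 0.576 rpm of it.

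Of 9 tested adaptors and response genes of IL-17 signalling, 2 were lower in the second matrix and none was higher, with a median log2 ratio of 0.16. The lower genes, *NFKB1* and *NFKBIZ*, both lost their call without A951. In the second matrix 7 of 8 tested genes of hypertrophic cartilage were higher. *COL10A1* was at 4042 rpm in IL17B-high against 732.9 rpm in other cells of the second matrix. By tag it was at 7120 rpm against 352.0 rpm in A951, 1170 rpm against 970.8 rpm in A952, 5570 rpm against 1195 rpm in A953 and 1479 rpm against 937.7 rpm in A954, so in A952 and A954 the difference was under 2-fold, and without A951 it was 3053 rpm against 1031 rpm. *IHH*, a hedgehog ligand of prehypertrophic chondrocytes, was found in 14.2% against 1.77% of cells. Of all genes tested in each matrix, 5.40% were higher in the main library and 5.89% in the second. Among the 9970 genes tested in both matrices, 488 were higher in the main library and 399 in the second. Of these, 86 were higher in both, which is 17.6% and 21.6% of each list. These included *ALPL*, *RUNX2*, *PTH1R*, *MEF2C*, *CNMD*, *COL9A1*, *PHOSPHO1*, *CA2*, *BGLAP*, *RFTN1*, *FGFBP2* and *CCDC80*. In the second matrix the calls of *MEF2C*, *CNMD* and *COL9A1* were lost without A951. That of *BGLAP* was lost without A954, and also without the IL17B-high cell with the most *BGLAP* reads. *SPP1*, higher in the main library, was lower in the second matrix, at 119.7 rpm against 1254 rpm (log2 ratio −3.39), although it was higher in 2 of the 4 tags, and the osteoblast and osteocyte markers summed to 15.8 rpm against 20.8 rpm there.

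**Figure D5:**
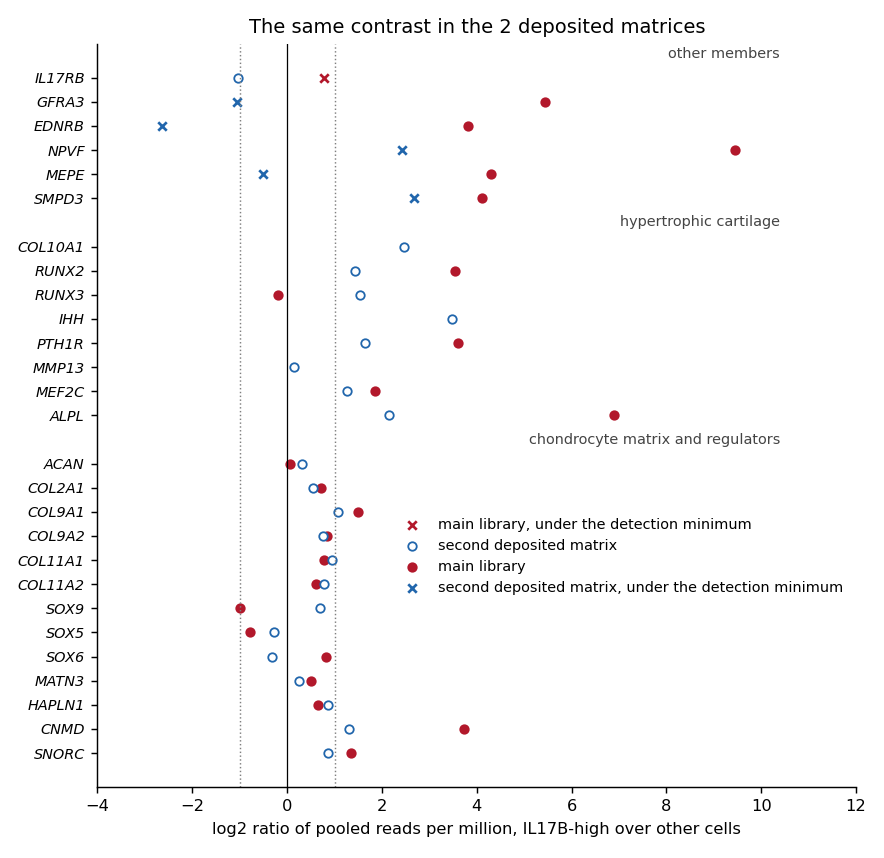
Log2 ratios of pooled rpm, IL17B-high over other cells, in the main library (red) and the second matrix (blue), with 2-fold limits dotted. Crosses are members under the detection minimum of 10% of cells, and list genes are drawn only where they passed it. *RUNX2*, *PTH1R*, *MEF2C* and *ALPL* lie beyond the right-hand limit in both, and *COL10A1* is drawn for the second matrix alone, at 2.46.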

How the data were processed

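Dissociated AC and NP cells of 2 monkeys were tagged, pooled and read as 1 TAS-seq library. Per the submitters' processing notes and the study's methods, the authors aligned reads with HISAT2 2.2.1, assigned them to genes with featureCounts 2.0.2, allowing reads that map to several places, and deposited the resulting raw counts, whole numbers of reads for each gene in each cell. Near-identical genes can therefore share reads, and the genome build is not given in the sources used here. Genes are given by symbol, and all 7 members have that symbol in RefSeq.

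Doublets and untagged cells (49 of 5723 columns) were not used. Cells with 200 to 9000 genes and under 5% mitochondrial reads (13 genes) were kept, which removed 21. No doublet caller was run on cells of 1 tag. The members and gene lists were chosen with earlier results of these data known. Named genes are the members, the listed genes, the 10 most like *IL17B* and the 10 with the highest and lowest log2 ratios. In ratios a side under 3 reads was set to 3, and a share of 0 allows 3 cells. Clustering in Seurat 5.3.0 (R 4.3.3) used 5000 variable genes, cell cycle regression, 30 principal components and a resolution of 0.27, after the study's methods. The study clustered more samples together, after correcting batch effects between them, whereas only the main library was clustered here. Other values came from Python 3.11.15 (scipy 1.17.1, pandas 2.3.3, numpy 2.4.6) and figures from matplotlib 3.10.9. The ratio calculation was tested on simulated data. The second matrix is named by no label, and its 1358 columns were treated as 1 pool. Alternatives were other limits on cells, thresholds of 50, 200 and 500 rpm, leaving out each tag or the NC-like cluster, thinning, detection from 5 reads or 100 rpm, mean rpm per cell, other clustering settings, and, added after the data were seen, leaving out single cells or the cluster of most IL17B-high cells, and the same alternatives for the second matrix. The result of 1 listed gene and the counts of 1 marker list are not reported here.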

Additional observations from a re-analysis of the deposited data

Results flagged for a closer look

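Over the 4 tags, 14 sets of shares were checked by Dixon's criterion for a tag far from the other 3, and chance alone flags about 1 in 20 such sets. In the main library the share of IL17B-high cells was 0.974% in A954, far below the 3.70% to 3.73% of the other 3 tags. In the second matrix *IL17RB* was found in 19.3% of the IL17B-high cells of A953, against 9.52% to 11.1% in the other 3 tags, and *GFRA3* in 4.62% of those of A952, which is 3 cells, against 0 cells in the other 3 tags. With 0 cells in those 3 tags any count in A952 would be flagged. The rate of 1 in 20 does not hold for this flag, and nothing is read from it. No other test of the tags was made, since each tag is a single pool of cells.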

How the results depend on the processing

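The direction of *IL17RB* was not kept: its log2 ratio of 0.79 was −1.42 without tag A954, −0.01 with IL17B-high cells taken from 500 rpm and −0.11 without the cell with most of its reads. In the main library the ratios of the other 5 members stayed above 0 under each alternative that was run. In the second matrix 3 of all 6 were 2-fold lower with no detection minimum. Under the alternatives, 58 of the values that answer a comparison moved by less than their limit and 12 by more, and 148 and 20 of the values of single members did so. The limit was the counting interval for a share, 1 SD over the tags for a ratio, which for *IL17RB* was wide enough to hold the changes of sign above, and 1.5 times for a count. The share of IL17B-high cells was 3.72% without tag A954. The share of IL17B-high cells with another member, 85.4% at the main settings, was 74.0% in cells thinned to 50000 reads, 73.5% with detection from 5 reads, 51.7% from 100 rpm and 38.1% without the cluster of most IL17B-high cells. The count of higher genes, 570 at the main settings, was 366 after thinning, 365 when the IL17B-high cell with most reads of each gene was left out and 4144 with no detection minimum. Thinning and higher limits leave fewer reads or cells by construction, and no minimum leaves more genes to count. The alternatives that leave out single cells or the cluster of most IL17B-high cells, and those of the second matrix, were chosen after seeing the data. By Spearman's rho, 5 of the 10 genes most like *IL17B* were the same, and the cause was not tested. In the second matrix the share with another member, 25.7% at the main settings, was 13.9% after thinning, 7.34% from 5 reads and 0.917% from 100 rpm. Without tag A953 *NPVF* was found in 28.0% of IL17B-high cells. No paired analysis was possible because the results come from no test, and values within each tag are given in its place. Read depth limits detection of members with few reads, and with 1 library the spread between animals is unknown.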
